A study of Mus musculus with 57 samples.

Results

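The late response of Kupffer cells to a steatohepatitis (NASH) diet was measured by comparing 3 libraries taken at 20 weeks of diet with 2 libraries taken at 4 weeks, chosen by their titles from 57 libraries of the series. All 5 held polyadenylated RNA of F4/80-high, Tim4-positive macrophages sorted from the livers of C57BL/6J mice, and all 5 came from mice on the NASH diet, so that only the weeks of feeding set the groups apart in the labels. Age is not given. Replicates are numbered, but nothing ties the numbers to separate mice, and every p-value below rests on library-to-library scatter that may be technical. The study profiled liver macrophages, blood monocytes and whole liver of healthy and NASH diet mice in 16 groups, and 17 of its libraries follow Kupffer cells over the diet: 3 before it, 2 at 1 week, 2 at 4 weeks, 3 at 10 weeks, 3 at 20 weeks and 4 at 30 weeks. These 17 were fitted together with edgeR, and the 20 week groups were set against the 4 week groups over all 14552 genes with enough counts. Levels are CPM, counts scaled to an equal library size. A gene is said to have risen or fallen by 20 weeks only where its adjusted p was under 0.05.

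Kupffer cells are the resident macrophages of the liver sinusoids, where they take up blood-borne particles, ageing red cells and lipoproteins. They are known by Clec4f, Timd4, Vsig4 and complement genes, and their identity depends on signals from neighbouring cells and on the sterol-sensing LXR receptors. In fatty liver inflammation, lipid-laden macrophages with high Trem2, Gpnmb, Cd9 and Spp1 are known from liver and adipose tissue, and markers of newly recruited cells can appear within gates that held resident cells. RNA of a sorted bulk sample cannot tell a change within each cell from a change in which cells fill the gate.

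Promoters are shown here for the 6 risen genes of the lipid-associated macrophage and matrix remodelling lists whose 250 bases before the start hold TGANTCA. This is a loose form, with any middle base, of the word bound by AP-1 (the Fos and Jun family of factors). Each line gives the 100 bases before the start in RefSeq on GRCm38.p6, plus strand, with TGANTCA in capitals. The AP-1 word has C or G in the middle, as in the Itgax, Mmp12, Mmp13 and Plaur lines. The Emp1 and Trem2 lines hold T and A there.
Emp1: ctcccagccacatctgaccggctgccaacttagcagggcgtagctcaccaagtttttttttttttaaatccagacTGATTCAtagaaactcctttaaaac
Itgax: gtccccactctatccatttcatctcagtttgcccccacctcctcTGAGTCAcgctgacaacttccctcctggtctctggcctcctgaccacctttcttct
Mmp12: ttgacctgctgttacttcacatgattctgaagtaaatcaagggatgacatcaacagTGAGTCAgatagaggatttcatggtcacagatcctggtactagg
Mmp13: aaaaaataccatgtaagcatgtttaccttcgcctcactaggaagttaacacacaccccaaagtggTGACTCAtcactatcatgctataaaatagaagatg
Plaur: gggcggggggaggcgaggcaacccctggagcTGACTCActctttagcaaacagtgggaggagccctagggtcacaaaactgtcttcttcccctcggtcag
Trem2: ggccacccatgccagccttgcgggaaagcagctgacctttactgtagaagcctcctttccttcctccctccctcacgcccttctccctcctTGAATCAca
The lines lie at chr6:135362831-135362930 (Emp1), chr7:128129450-128129549 (Itgax), chr9:7347274-7347373 (Mmp12), chr9:7272414-7272513 (Mmp13), chr7:24462383-24462482 (Plaur) and chr17:48346301-48346400 (Trem2). Emp1 has a further TGANTCA word at -145 to -139. The word was searched on both strands of the 250 bases before the start in 10929 tested genes with a matched promoter, and 4.44% of them held it. Of the risen members with a matched promoter, 4 of 12 held it in the lipid-associated macrophage list and 3 of 7 in the matrix list, with Mmp12 in both. Among the 869 risen genes of little shared sequence with a matched promoter the share was 5.18%. CACGTG, the E-box of the lysosomal MiT/TFE factors, was in 12.2% of these 869, in 7.13% of 631 such fallen promoters and in 8.30% of all. CATGTG was in 6.56%, 10.5% and 7.76% of the same 3 sets, the NF-kB word in 21.5%, 23.0% and 22.5%, GGAAGT in 22.7%, 22.8% and 23.8%, and TCACNCCAC in 1.38%, 0.634% and 0.942%. In the 12 lipid-associated and 7 matrix promoters, GGAAGT was in 6 and 3 and the NF-kB word in 3 and 2. There CATGTG was in 2 and 1, TCACNCCAC in 1 and 0, and CACGTG in 0 and 0. A match is a run of letters and not a bound site.

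The libraries of the 2 groups differ in more than the weeks of diet. Total counts were 10.5 to 10.7 M at 4 weeks and 16.0 to 27.0 M at 20 weeks. Genes that share sequence with copies elsewhere in the genome were read out at other levels in the libraries of weeks 1, 4 and 10 than in those of weeks 0, 20 and 30. Rpl19, a ribosomal protein gene with many processed copies, was at 22.6 to 42.5 CPM in the 7 libraries of weeks 1, 4 and 10 and at 0.123 to 0.644 CPM in the 10 others, and Rpsa was at 23.5 to 51.7 and at 1.5 to 3.81 CPM. The share of a transcript's 50-base words that occur in a transcript of another locus was therefore computed for 14449 of the genes. Among the 12958 genes with under 5% shared words, 8.97% were called higher and 6.41% lower at 20 weeks, against 3.72% and 34.2% of the 269 genes with 50% or more. Both 4 week libraries lie in 1 class and every 20 week library in the other. Library class and week therefore cannot be told apart for any gene. The class was read from genes with shared words, and its part in the values of other genes was not tested. List counts are given over all members and, for several lists, also over those with under 5% shared words. Transcript length moved with the contrast as well. With under 5% shared words, genes under 1000 bases had a median log2 fold change of -0.41 and genes of 4000 bases or more one of 0.15. GC content moved less, from -0.13 in genes under 43% GC to 0.11 in genes of 55% or more. An added fit that removed smooth terms for length, GC and shared words from each library is named below as the offset fit.

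**Figure D1:**
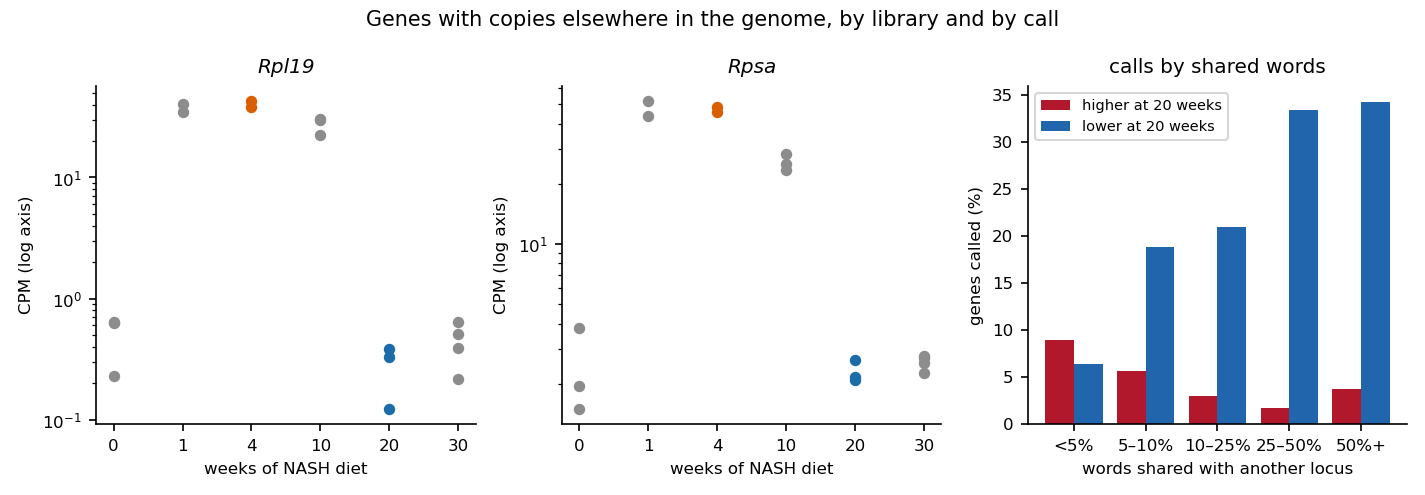
Left and middle, CPM (log axis) of Rpl19 and Rpsa in each of the 17 Kupffer cell libraries by weeks of diet, with 4 weeks in orange, 20 weeks in blue and other weeks in grey. Right, percent of genes called higher (red) or lower (blue) at 20 weeks by the share of words found in another locus: the share called lower goes from 6.41% below 5% shared words to 34.2% at 50% or more.

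Of 14552 genes, 2438 (16.8%) were called between 20 and 4 weeks by edgeR's quasi-likelihood test with Benjamini-Hochberg adjustment, 1215 (8.35%) higher and 1223 (8.4%) lower at 20 weeks. Each list count below is to be read beside these shares of all genes. In 2430 of the calls the 3 later libraries did not overlap the 2 earlier ones. The separation alone is common, since 23.9% of all genes were higher and 24.2% lower in every 20 week library than in every 4 week library. The rises reached at least 2-fold in 526 genes and at least 8-fold in 119, and 111 of these 119 had under 5% shared words. The falls reached at least 2-fold in 694 genes and at least 8-fold in 122, of which 72 had under 5% shared words. Calls rested in good part on the second 4 week library: 700 genes were called without 4 week replicate 2 (402 higher, 298 lower) and 1508 without 4 week replicate 1, each with the lone 4 week library assumed to vary like the other groups. Over genes with under 5% shared words alone, 1944 (15%) were called, 1096 higher (8.46%) and 848 lower (6.54%). In the offset fit 2230 (15.3%) were called, 1188 higher (8.16%) and 1042 lower (7.16%). With limma on log2 of TPM plus 1 in place of counts the split of calls moved: 943 were higher and 1770 lower, so that 34.8% of 2713 calls were higher against 49.8% in the edgeR fit.

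The 12 largest rises were in genes at under 40 CPM in both 4 week libraries. Gpnmb (chr6:49036518-49058182, mm10), a lysosomal membrane glycoprotein of lipid-laden macrophages, was at 37.3 and 8.72 CPM at 4 weeks and 1661, 812 and 1683 CPM at 20 weeks (log2 fold change 5.91, SE 0.63, adjusted p = 2.26e-05). It was at 0.988 ± 0.205 CPM (SD, n = 3) before the diet and at 1603 ± 185 CPM (SD, n = 4) at 30 weeks. Every 20 week library was more than 10 times as high as either 4 week library. Adam8, a membrane metalloprotease that sheds surface proteins, was at 5.21 and 2.27 CPM at 4 weeks and 239.7, 139 and 301 CPM at 20 weeks (log2 fold change 5.92, SE 0.62, adjusted p = 2.07e-05). Atp6v0d2, a subunit of the proton pump that acidifies lysosomes, was at 3.91 and 0.948 CPM at 4 weeks and 107, 54.2 and 135 CPM at 20 weeks (log2 fold change 5.33, SE 0.77, adjusted p = 0.000327). Both gene products belong to the surface and the lysosome, and neither gene's groups overlapped. Trim29, which encodes a tripartite motif protein, had no counts in 4 week replicate 2 and was at 0.279 and 0 CPM at 4 weeks and 18.6, 10.1 and 29.6 CPM at 20 weeks (adjusted p = 0.000926). Xylt1, which starts the sugar chains of proteoglycans, likewise had no counts there and was at 12.6, 11.3 and 17.3 CPM at 20 weeks (adjusted p = 0.000484). Chst11, a sulfotransferase acting on chondroitin chains, was at 2.98 and 1.04 CPM at 4 weeks and 109, 88.5 and 114 CPM at 20 weeks (log2 fold change 5.68, SE 0.87, adjusted p = 0.000491).

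The other members of the 12 largest rises were of mixed function. Vsig8, an immunoglobulin domain membrane protein, was at 2.05 and 0.19 CPM at 4 weeks and 48.9, 35.4 and 122 CPM at 20 weeks (log2 fold change 5.93, SE 1.05, adjusted p = 0.00141). H2-M2, a non-classical MHC class I gene, was at 1.86 and 0.569 CPM at 4 weeks and 71.5, 53.7 and 77.3 CPM at 20 weeks (log2 fold change 5.78, SE 0.71, adjusted p = 7.59e-05). Gdf3, a ligand of the TGF-beta family, was at 1.30 and 1.42 CPM at 4 weeks and 78.01, 18.5 and 38.4 CPM at 20 weeks (log2 fold change 5.04, SE 0.55, adjusted p = 2.82e-05). In each of these genes every 20 week library was far above both 4 week libraries. Myo5a, an organelle motor, was at 4.37 and 2.94 CPM at 4 weeks and 143, 77.9 and 113 CPM at 20 weeks (log2 fold change 4.92, SE 0.52, adjusted p = 2.29e-05). Slc9a7, a sodium-proton exchanger of the Golgi, had a log2 fold change of 5.38 (SE 0.51, adjusted p = 1.15e-05), and Myh15, a myosin heavy chain gene, one of 4.78 (SE 0.84, adjusted p = 0.00137). All 12 had under 5% shared words and kept their call in each of the 5 fits that left out 1 library and in the offset fit.

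Most genes of the lipid-associated macrophage list rose. Of 20 members tested, 16 rose and 0 fell, with a median log2 fold change of 1.65, where the median of all genes was 0. Of the 16 members with under 5% shared words 13 rose, with a median of 1.27. The summed level of the list was 4278 and 3896 CPM at 4 weeks and 12816, 8236 and 13879.7 CPM at 20 weeks. Trem2, a lipid-sensing receptor, was at 78.4 and 93.5 CPM at 4 weeks and 335, 198 and 509 CPM at 20 weeks (log2 fold change 2.01, SE 0.38, adjusted p = 0.00206). Its 20 week values lay more than 100 CPM above both 4 week values. Cd9, a tetraspanin, was at 43.4 and 41.3 CPM at 4 weeks and 151, 112 and 189.5 CPM at 20 weeks (log2 fold change 1.83, SE 0.27, adjusted p = 0.000434). Emp1, an epithelial membrane protein with 2 TGANTCA words in its promoter, was at 2.32 and 0.948 CPM at 4 weeks and 50.2, 23.01 and 43.5 CPM at 20 weeks (log2 fold change 4.56, SE 0.62, adjusted p = 0.000192). Lpl, the lipase that frees fatty acids from lipoproteins, was already abundant at 1144 and 1531 CPM at 4 weeks and 4307, 2566 and 4295 CPM at 20 weeks (log2 fold change 1.48, SE 0.27, adjusted p = 0.00194). All 4 kept their call without any 1 library.

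Other members of the list moved with larger spread at 4 weeks. Itgax, the CD11c integrin chain, was at 61.9 and 12.04 CPM at 4 weeks and 556, 263 and 596 CPM at 20 weeks (log2 fold change 3.67, SE 0.77, adjusted p = 0.00436), and Mmp12, the macrophage elastase, at 206 and 35.2 CPM at 4 weeks and 1413, 777 and 1571 CPM at 20 weeks (log2 fold change 3.38, SE 0.84, adjusted p = 0.0119). Itgax has 9.61% shared words. In both genes 4 week replicate 1 was over 5 times as high as replicate 2, and the call was lost without 4 week replicate 2, with log2 fold changes of 2.93 to 5.30 and 2.61 to 5.17 over the fits without 1 library. Spp1, which encodes osteopontin and is also a marker of bile duct cells, was at 5.76 and 8.53 CPM at 4 weeks and 110.1, 57.1 and 106 CPM at 20 weeks (log2 fold change 3.67, SE 0.88, adjusted p = 0.00954), and it lost its call without either 4 week library (log2 fold change 3.42 to 3.98). Plin2, which coats lipid droplets, was at 394 and 415 CPM at 4 weeks and 628, 674 and 933 CPM at 20 weeks (log2 fold change 0.88, SE 0.17, adjusted p = 0.00282), and Vim, an intermediate filament gene, at 339 and 331 CPM at 4 weeks and 685, 608 and 620.3 CPM at 20 weeks (log2 fold change 0.93, SE 0.15, adjusted p = 0.000586). These changes were smaller and their groups did not overlap. Cd63, a tetraspanin of late endosomes with 38.9% shared words, was at 5.39 and 1.42 CPM at 4 weeks and 56.1, 27.9 and 86.2 CPM at 20 weeks (adjusted p = 0.000582), opposite in direction to most genes with shared words. Fabp5, Lgals3, Cd36 and Cstb also rose, with log2 fold changes of 2.20, 0.77, 0.91 and 0.66, and each of the 4 lost its call without 20 week replicate 3 or 4 week replicate 2 (1.67 to 2.57, 0.61 to 0.96, 0.49 to 1.51 and 0.46 to 0.86). The 4 members that did not pass were Capg (1.06, adjusted p = 0.0521), Ctsk (0.80), Igf1 (0.11) and Colec12 (-0.46). Of the 16 risen members, 13 were called again without 20 week replicate 1 and 12 without 20 week replicate 3. Without 4 week replicate 2, 9 members were called, and with the 5 libraries alone 11.

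**Figure D2:**
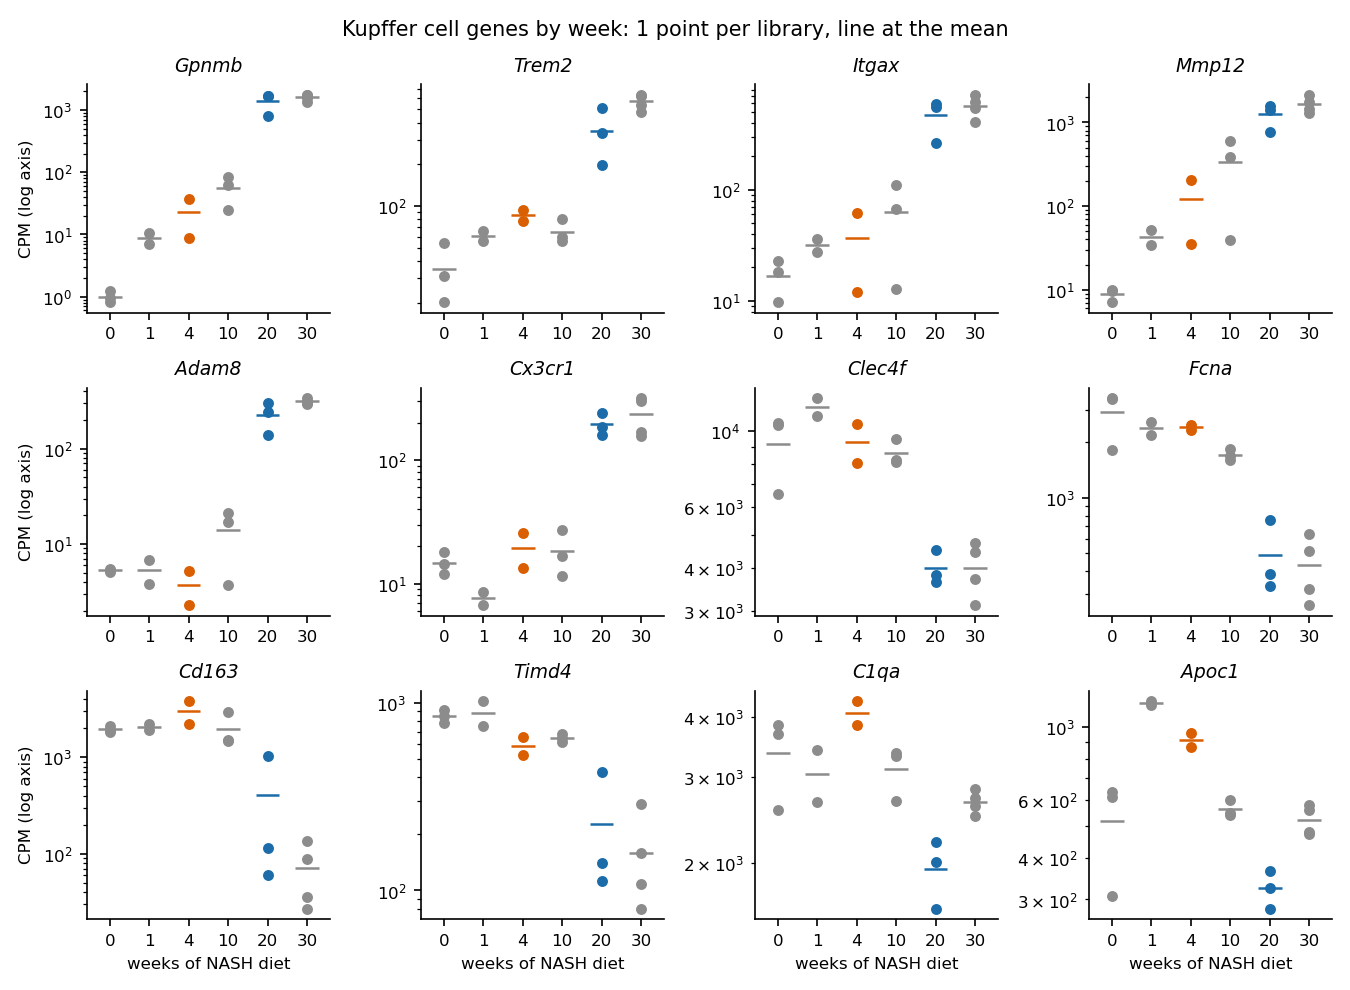
CPM (log axis) of 12 genes in each Kupffer cell library by weeks of NASH diet, 1 point per library and a line at the mean, with 4 weeks in orange, 20 weeks in blue and other weeks in grey. Gpnmb, Trem2, Itgax, Mmp12, Adam8 and Cx3cr1 are higher in all 3 libraries of 20 weeks than in both of 4 weeks, and Clec4f, Fcna, Cd163, Timd4, C1qa and Apoc1 are lower.

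Secreted proteases and growth factors rose in most members. Of 21 genes for matrix remodelling and growth factors, 12 rose and 0 fell (median log2 fold change 1.12), all 21 with under 5% shared words. Mmp14, a membrane collagenase, was at 49.3 and 32.03 CPM at 4 weeks and 394, 229 and 365 CPM at 20 weeks (log2 fold change 3.02, SE 0.34, adjusted p = 4.06e-05). Mmp2, a gelatinase activated by Mmp14, was at 5.21 and 2.18 CPM at 4 weeks and 27.2, 31.3 and 19.4 CPM at 20 weeks (log2 fold change 2.81, SE 0.44, adjusted p = 0.000593). Plau, the urokinase that generates plasmin, was at 21.9 and 32.5 CPM at 4 weeks and 165, 99.2 and 200.2 CPM at 20 weeks (log2 fold change 2.51, SE 0.38, adjusted p = 0.000467). The 20 week libraries of these 3 genes were each at least 3 times as high as the higher 4 week library. Mmp13, a collagenase with an AP-1 word 35 bases before its start, was at 23.8 and 5.59 CPM at 4 weeks and 288, 166 and 345 CPM at 20 weeks (log2 fold change 4.18, SE 0.88, adjusted p = 0.00449), and Plaur, the urokinase receptor, at 19.3 and 17.4 CPM at 4 weeks and 57, 33.8 and 64.1 CPM at 20 weeks (log2 fold change 1.49, SE 0.31, adjusted p = 0.00402). Pdgfa, a growth factor for stellate cells, was at 8.46 and 5.59 CPM at 4 weeks and 31.2, 23.5 and 21.7 CPM at 20 weeks (log2 fold change 1.86, SE 0.34, adjusted p = 0.00201). Pdgfb, Thbs1, Mmp8, Mmp19 and Mmp27 rose by log2 fold changes of 1.14, 1.86, 2.45, 1.12 and 0.73. Of these, Pdgfb lost its call without 4 week replicate 1 (0.69 to 1.81), Mmp19 without 4 week replicate 2 (1.01 to 1.26), and Thbs1 (1.66 to 1.98), Mmp8 (1.89 to 3.41) and Mmp27 (0.56 to 0.83) without either, Thbs1 also without 20 week replicate 2, Mmp27 without 20 week replicate 1 and Mmp8 without 20 week replicate 1 or 3. Among the members that did not pass, the inhibitors Timp1, Timp2 and Timp3 had values of 0.029, -0.40 and 0.14, Mmp9 one of 0.79 and Tgfb1 one of 0.23. Mmp14, Mmp2 and Plau kept their call without any 1 library. Mmp13, Plaur and Pdgfa lost it without 4 week replicate 2 (log2 fold change 3.48 to 5.58, 1.30 to 1.73 and 1.59 to 2.19), a fit in which 4 of the 21 members were called.

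Antigen presentation by MHC class II rose in 6 of 8 members, with 0 falling and a median log2 fold change of 1.73. The summed level was 9925 and 4241 CPM at 4 weeks and 23398, 16659.9 and 23483 CPM at 20 weeks. Cd74, the invariant chain, was at 5716 and 2683 CPM at 4 weeks and 11856, 10333 and 11399.8 CPM at 20 weeks (log2 fold change 1.41, SE 0.29, adjusted p = 0.00417). H2-Aa, a chain of the I-A molecule, was at 1387 and 467 CPM at 4 weeks and 4274, 2406 and 3941 CPM at 20 weeks (log2 fold change 1.93, SE 0.41, adjusted p = 0.00445). Ciita, the transcriptional coactivator of these genes, was at 83.4 and 33.4 CPM at 4 weeks and 324, 189.8 and 279 CPM at 20 weeks (log2 fold change 2.18, SE 0.43, adjusted p = 0.00294). In all 3 genes 4 week replicate 2 was below 4 week replicate 1, and no 4 week value reached the lowest 20 week value. H2-Eb1, H2-Ab1 and H2-Oa also rose, by log2 fold changes of 2.06, 1.71 and 1.75, while the peptide loading chains H2-DMa (0.43, adjusted p = 0.196) and H2-DMb1 (0.51, adjusted p = 0.233) did not pass. None of the 8 was called without 4 week replicate 2, where the log2 fold change of Cd74 and H2-Aa stayed positive (0.97 to 2.07 and 1.35 to 2.93 over the fits without 1 library), and 1 was called with the 5 libraries alone. The marker list of dendritic cells, which also carry MHC class II, moved in the same contrast: Xcr1, Ccr7, Itgae and Ccl22 rose and Clec10a fell, with a summed level of 65.4 to 74.5 CPM at 4 weeks and 80.6 to 114 CPM at 20 weeks, and its part in this result was not tested.

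**Figure D3:**
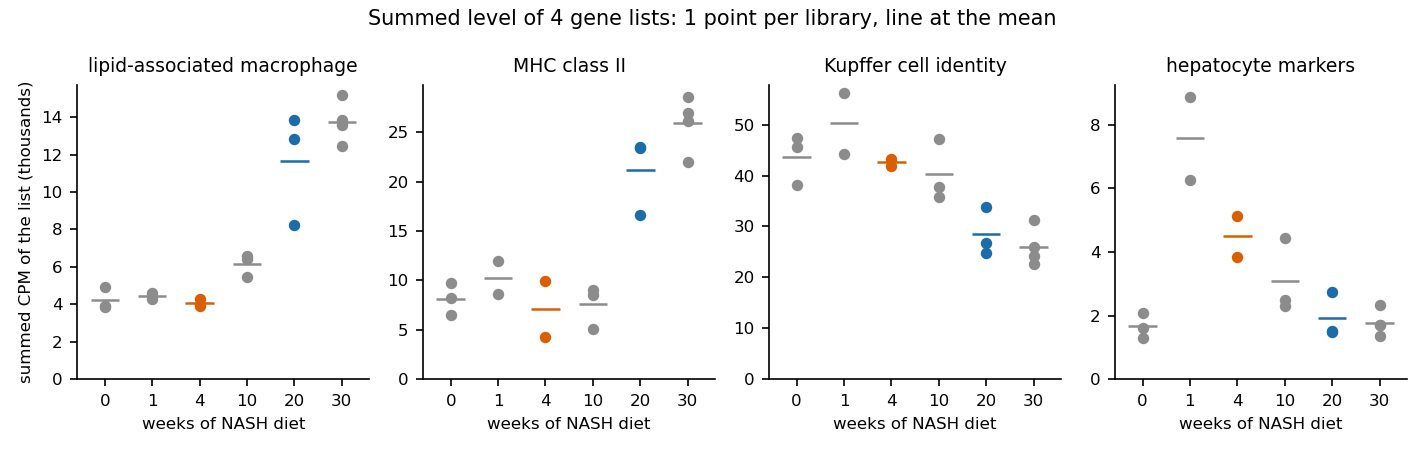
Summed CPM (axis in units of 1000) of 4 gene lists in each of the 17 Kupffer cell libraries by weeks of NASH diet, 1 point per library and a line at the mean, with 4 weeks in orange, 20 weeks in blue and other weeks in grey. The lipid-associated macrophage and MHC class II sums are higher, and the Kupffer cell identity and hepatocyte marker sums lower, in every 20 week library than in every 4 week library.

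Lysosomal genes rose in 7 of 22 members with 0 falling (median log2 fold change 0.35). The rises were in abundant genes. Psap, the precursor of the saposins that help degrade sphingolipids, was at 6185 and 5266 CPM at 4 weeks and 13828, 10587 and 13989 CPM at 20 weeks (log2 fold change 1.16, SE 0.18, adjusted p = 0.000558). Ctsd, an aspartic protease, was at 5063 and 4243 CPM at 4 weeks and 9112, 7732 and 10618 CPM at 20 weeks (log2 fold change 0.98, SE 0.18, adjusted p = 0.00162). Npc1, which exports cholesterol from the lysosome, was at 209 and 229 CPM at 4 weeks and 369.8, 537 and 375 CPM at 20 weeks (log2 fold change 0.96, SE 0.18, adjusted p = 0.0018). In each of the 3 genes the groups were apart. Ctsz, Gla, Tpp1 and Mcoln1 rose as well, by 1.02, 1.26, 0.45 and 0.85, and all of these but Ctsz lost their call without 4 week replicate 2 (1.03 to 1.55, 0.41 to 0.51 and 0.64 to 0.99), Gla also without 20 week replicate 1 or 3. The remaining proteases and membrane proteins, such as Ctsb (0.31), Ctss (0.061), Lamp1 (0.46) and Lipa (0.36), did not pass. The summed level of the list was 34690 to 37434 CPM at 4 weeks and 53037 to 54640 CPM at 20 weeks. Without 4 week replicate 2, 4 of the 22 were called.

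Of 23 genes of cholesterol synthesis and uptake, 6 rose, 0 fell and 17 did not pass (median 0.51). Of the 19 with under 5% shared words 5 rose and 0 fell. Dhcr7, which makes cholesterol in the last step of its pathway, was at 33.2 and 38.4 CPM at 4 weeks and 74.3, 76.1 and 84.9 CPM at 20 weeks (log2 fold change 1.13, SE 0.14, adjusted p = 8.59e-05). Cyp51, Lss and Fdft1, enzymes of the same pathway, rose by 1.35, 0.87 and 0.63. Of these, Dhcr7 kept its call without any 1 library. Lss lost it without 4 week replicate 1 (0.66 to 1.13), a fit in which 1 member was called and the median was 0.22. Cyp51 (1.11 to 1.55) lost it without either 4 week library. Fdft1 (0.47 to 0.72) lost it without either 4 week library or without 20 week replicate 1 or 2.

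LXR targets split by member. Of 14, 6 rose and 1 fell (median 0.35). Abcg1, a cholesterol exporter, was at 591 and 460.1 CPM at 4 weeks and 999, 999 and 991 CPM at 20 weeks (log2 fold change 0.92, SE 0.24, adjusted p = 0.0155), and Abca1, the other main exporter, at 1119.7 and 659 CPM at 4 weeks and 1464, 1767 and 1354 CPM at 20 weeks (log2 fold change 0.78, SE 0.22, adjusted p = 0.0216). Scd2, a desaturase, was at 175 and 265 CPM at 4 weeks and 466, 406 and 492 CPM at 20 weeks (log2 fold change 1.05, SE 0.21, adjusted p = 0.00366). Srebf1 (0.63), Mylip (0.68) and Lpcat3 (0.41) also rose. Apoc1, an apolipoprotein, fell, from 957 and 866 CPM at 4 weeks to 281, 325 and 367 CPM at 20 weeks (log2 fold change -1.49, SE 0.22, adjusted p = 0.000395), and kept its call without any 1 library and in the offset fit. Before the diet Apoc1 was at 307, 634 and 613 CPM, a range that overlapped the 20 week values. Apoe, the most abundant of the list at 22227 and 17295 CPM at 4 weeks and 21908, 18402 and 28820.0 CPM at 20 weeks (0.22, adjusted p = 0.612), and Nr1h3, which encodes LXR alpha itself (0.045, adjusted p = 0.876), did not pass. The call of Abcg1, Abca1 and Srebf1 was lost in the offset fit, where 3 members rose, and without 4 week replicate 2 Scd2 was the single rise called. Scd2 lost its call without 4 week replicate 1 (0.79 to 1.38). Srebf1 (0.60 to 0.68) and Lpcat3 (0.27 to 0.58) lost it without either 4 week library, Lpcat3 also without 20 week replicate 1 or 2. Abca1 (0.45 to 1.22) lost it without 4 week replicate 2 or 20 week replicate 2. Abcg1 (0.75 to 1.12) and Mylip (0.38 to 1.06) lost it without 4 week replicate 2 alone. Of 14 genes of fatty acid synthesis, 4 rose and 0 fell: Elovl1 (0.76, adjusted p = 0.0012), Elovl5 (0.55), Scd2 and Srebf1. Elovl1 kept its call without any 1 library, and Elovl5 lost it without either 4 week library or without 20 week replicate 1 or 2 (0.42 to 0.66). Fasn (0.65, adjusted p = 0.0662) and Acly (-0.75, adjusted p = 0.0717) did not pass, with values of opposite sign.

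Cytokine and NF-kB genes rose in 9 of 23 members and fell in 1 (median 0.36). Of the 22 members with under 5% shared words 9 rose and 0 fell. Il1rn, the IL-1 receptor antagonist, was at 106 and 83.5 CPM at 4 weeks and 399.6, 271 and 386 CPM at 20 weeks (log2 fold change 1.89, SE 0.37, adjusted p = 0.0029). Ccl3 and Ccl4, chemokines of inflammation, rose by 1.23 and 1.46, and Ccl5, a further chemokine, by 2.08. Nfkb1 (0.56), Rel (0.87), Cd40 (0.69), Tnfaip3 (1.35) and Ptgs2 (2.95) rose as well. Cxcl2, a neutrophil chemokine, fell from 45 and 76.7 CPM to 14.7, 11.6 and 13.4 CPM (log2 fold change -2.20, SE 0.69, adjusted p = 0.0382), and lost its call in each of the fits without 1 library (log2 fold change -2.53 to -1.77) and in the offset fit. No member was called without 4 week replicate 2, where Il1rn had a log2 fold change within 1.73 to 2.09. Ccl5 is also expressed by T cells, whose markers Cd3e and Cd8a were highest in 20 week replicate 1, as Ccl5 was at 96.2, 64.3 and 28.8 CPM. Ccl5 lost its call without that library (1.65 to 2.42), and the part of T cell RNA in its value was not tested.

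Immediate early genes did not move as a group, with 4 rises and 3 falls in 18 (median -0.17). Egr2, a zinc finger factor, was at 4.56 and 1.61 CPM at 4 weeks and 48.4, 33.7 and 78.3 CPM at 20 weeks (log2 fold change 4.11, SE 0.54, adjusted p = 0.000148). Atf3, a stress factor, was at 33.1 and 28.5 CPM at 4 weeks and 147, 89.8 and 263 CPM at 20 weeks (log2 fold change 2.43, SE 0.37, adjusted p = 0.000484). Both kept their call without any 1 library. Egr3 (2.62) and Dusp2 (2.08) also rose, but lost their call without 4 week replicate 2 (1.92 to 4.06 and 1.19 to 2.51), Dusp2 also without 4 week replicate 1 or 20 week replicate 3. Fosb, an AP-1 subunit, fell, from 130.0 and 123 CPM to 36.1, 34.8 and 23.9 CPM (log2 fold change -1.997, SE 0.59, adjusted p = 0.0288), and lost its call without any 1 of the 5 libraries (-2.10 to -1.84), as Klf2 (-0.64) did. Fos (-0.96, adjusted p = 0.252), Jun (0.62, adjusted p = 0.248) and Egr1 (-0.23, adjusted p = 0.773) did not pass. Tissue was digested with flavopiridol, a blocker of transcription, present.

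Glucose handling genes rose in 6 of 19 members and fell in 3. Slc2a1, the GLUT1 transporter, was at 23.7 and 31.1 CPM at 4 weeks and 76.3, 74.3 and 91.2 CPM at 20 weeks (log2 fold change 1.56, SE 0.19, adjusted p = 7.73e-05). Pfkl, a phosphofructokinase, was at 57.6 and 43.7 CPM at 4 weeks and 95.5, 105 and 137 CPM at 20 weeks (log2 fold change 1.15, SE 0.16, adjusted p = 0.000208). Vegfa, a vascular growth factor induced by hypoxia, was at 3.53 and 2.75 CPM at 4 weeks and 22.4, 16.8 and 35.98 CPM at 20 weeks (log2 fold change 2.99, SE 0.52, adjusted p = 0.00121). These 3 kept their call without any 1 library. Slc16a3, a lactate exporter, Ldha and Pdk1 rose by 1.30, 0.63 and 0.63, of which Ldha lost its call without 4 week replicate 1 (0.48 to 0.73) and Pdk1 without either 4 week library (0.48 to 0.74). The 3 falling members, Pgam1, Eno1 and Bnip3, have 41.5% to 72.2% shared words, and with under 5% shared words 5 members rose and 0 fell (median 0.63).

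Markers of monocytes moved in both directions. Cx3cr1 (chr9:120048683-120068296, mm10), the fractalkine receptor of Ly6C-low monocytes, was at 13.5 and 25.6 CPM at 4 weeks and 241, 160.4 and 186 CPM at 20 weeks (log2 fold change 3.32, SE 0.42, adjusted p = 8.84e-05). It was at 14.8 ± 3.11 CPM (SD, n = 3) before the diet, and no earlier library overlapped those of 20 weeks. Spn (CD43) was at 12.2 and 9.003 CPM at 4 weeks and 43.9, 33.3 and 22.3 CPM at 20 weeks (log2 fold change 1.65, SE 0.30, adjusted p = 0.00173), whereas Cd300e fell, from 139 and 193 CPM to 50.1, 76.6 and 73.3 CPM (log2 fold change -1.32, SE 0.36, adjusted p = 0.0195), losing its call without 20 week replicate 1 or 4 week replicate 2 (-1.52 to -1.06). Ccr2, the chemokine receptor that draws monocytes from marrow, was at 8.74 and 7.49 CPM at 4 weeks and 35.6, 27.3 and 25.1 CPM at 20 weeks (log2 fold change 1.85, SE 0.39, adjusted p = 0.00433), with the call lost without 4 week replicate 2 (1.70 to 1.98). Its week 0 level was 20.9 ± 8.10 CPM (SD, n = 3), and its libraries then (12.9 to 29.1) overlapped those of 20 weeks. Plac8, another gene of Ly6C-high monocytes, fell from 116 and 119.5 CPM to 53.3, 43.4 and 49.1 CPM (log2 fold change -1.28, SE 0.27, adjusted p = 0.00474), and in the offset fit it did not pass (-0.64, adjusted p = 0.128). In the Ly6C-high list 3 of 14 members rose and 2 fell, and in the Ly6C-low list 3 of 10 rose and 1 fell. Of the 11 Ly6C-high members with under 5% shared words 2 rose and 2 fell.

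Kupffer cell identity genes fell in 7 of 24 members and rose in 1 (median -0.52). Of the 23 members with under 5% shared words 6 fell and 1 rose. The summed level was 43189.6 and 41926 CPM at 4 weeks and 26751, 33766 and 24802 CPM at 20 weeks. Clec4f (chr6:83644542-83656116, mm10), the C-type lectin that defines mouse Kupffer cells, was at 10446 and 8091 CPM at 4 weeks and 3635, 4522 and 3818 CPM at 20 weeks (log2 fold change -1.22, SE 0.22, adjusted p = 0.00155). Fcna, a ficolin of innate immunity, was at 2336 and 2475 CPM at 4 weeks and 334, 759 and 386 CPM at 20 weeks (log2 fold change -2.29, SE 0.37, adjusted p = 0.000687). Both fell in every 20 week library and kept their call without any 1 library and in the offset fit. Vsig4, a receptor for complement-coated particles, was at 2204 and 2310.2 CPM at 4 weeks and 1154, 1243 and 1045 CPM at 20 weeks (log2 fold change -0.98, SE 0.17, adjusted p = 0.00137). Spic, a transcription factor of iron-recycling macrophages, was at 57.8 and 69.7 CPM at 4 weeks and 35.4, 30.7 and 30 CPM at 20 weeks (log2 fold change -0.99, SE 0.15, adjusted p = 0.000462), but did not pass in the offset fit (-0.44, adjusted p = 0.0587). C6 (-1.45) and Cd38 (-0.61) fell as well, both lost without 4 week replicate 2 (-1.92 to -1.20 and -0.85 to -0.31) and Cd38 also without 20 week replicate 1 or 3. Paqr9 rose (0.65) and lost its call without either 4 week library or without 20 week replicate 1 or 2 (0.44 to 0.81). Timd4, which encodes the Tim4 protein that the cells were sorted for, was at 653 and 527 CPM at 4 weeks and 141, 429 and 112 CPM at 20 weeks (log2 fold change -1.38, SE 0.48, adjusted p = 0.0598), lower in all 3 later libraries without passing the test. It passed without 20 week replicate 2, where its log2 fold change was -2.22. Adgre1, which encodes F4/80, was at 1945 and 1605 CPM at 4 weeks and 2242, 2718 and 1970.5 CPM at 20 weeks (log2 fold change 0.38, SE 0.20, adjusted p = 0.201), and Cd5l, the most abundant of the list, at 10585 and 10559.6 CPM at 4 weeks and 10850.3, 12384 and 10516 CPM at 20 weeks (log2 fold change 0.090, SE 0.21, adjusted p = 0.809). Marker genes of the labelled cell type were therefore present in all 5 libraries. In bulk RNA, fewer Kupffer cells in the gate and less of each RNA per cell cannot be told apart.

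The 20 week libraries were not alike in this list. Cd163, a haemoglobin scavenger receptor, was at 2215 and 3789 CPM at 4 weeks and 59.9, 1039 and 115 CPM at 20 weeks (log2 fold change -2.89, SE 0.85, adjusted p = 0.0279), so that 20 week replicate 2 was far above replicates 1 and 3. Marco, a scavenger receptor, was at 764 and 1132 CPM at 4 weeks and 46.1, 330.4 and 178 CPM at 20 weeks (log2 fold change -2.36, SE 0.85, adjusted p = 0.0697), again highest in replicate 2 among the later libraries. The same library had the lowest 20 week levels of Gpnmb and Trem2 and the highest summed level of the identity list. Without 20 week replicate 2, 13 identity genes fell and 0 rose, and without 4 week replicate 2, 4 fell. Cd163 lost its call without 20 week replicate 1 or 3 or without 4 week replicate 2 (-5.09 to -2.38). It was also not called by DESeq2 or with the 5 libraries alone.

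Complement genes fell in 6 of 15 members and rose in 1 (median -0.83). Of the 12 members with under 5% shared words 4 fell and 1 rose, with a median of -0.38. C1qa, a chain of the first component, was at 4302 and 3837 CPM at 4 weeks and 2000.3, 1606 and 2206 CPM at 20 weeks (log2 fold change -1.07, SE 0.19, adjusted p = 0.00128), while C1qb (-0.072, adjusted p = 0.802) and C1qc (-0.34, adjusted p = 0.17), its partner chains, did not pass. Cfp, which stabilises the alternative convertase, was at 2713 and 2229.6 CPM at 4 weeks and 1471, 1485 and 1202 CPM at 20 weeks (log2 fold change -0.83, SE 0.22, adjusted p = 0.0162), losing the call without either 4 week library (-0.97 to -0.68). C3ar1, the receptor for C3a, rose, from 265 and 224 CPM to 631, 579.9 and 622 CPM (log2 fold change 1.32, SE 0.16, adjusted p = 5.35e-05), and kept its call without any 1 library. C4b, of the classical pathway, fell too (-1.95), with over 25% shared words, and lost its call without 4 week replicate 2 (-2.61 to -1.42).

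Iron and redox genes were mixed. Hmox1, which degrades haem, fell, from 1824 and 1750.5 CPM to 955, 1290.3 and 795 CPM (log2 fold change -0.82, SE 0.22, adjusted p = 0.0174), and kept its call only without 20 week replicate 2 among the fits without 1 library (-1.02 to -0.67). Ftl1, the ferritin light chain with 74.8% shared words, fell by 1.28 on the log2 scale and did not pass in the offset fit (-0.51, adjusted p = 0.0578), and Fth1, the heavy chain, rose (log2 fold change 0.82, SE 0.19, adjusted p = 0.00895), losing its call without 4 week replicate 2 (0.72 to 0.94). Slc7a11, the cystine importer, was at 0.279 and 0.0948 CPM at 4 weeks and 7.30, 7.93 and 7.30 CPM at 20 weeks (log2 fold change 5.27, SE 1.09, adjusted p = 0.00404), and Srxn1, a sulfiredoxin, at 38.9 and 38.4 CPM at 4 weeks and 76.4, 80.6 and 73.5 CPM at 20 weeks (log2 fold change 0.99, SE 0.23, adjusted p = 0.0085). Gsr, glutathione reductase, fell, from 208 and 396 CPM to 118, 161 and 101 CPM (log2 fold change -1.25, SE 0.27, adjusted p = 0.00487), and Txn1, thioredoxin, fell by 1.26. These 4 lost their call without 4 week replicate 2, with log2 fold changes of 4.72 to 6.22, 0.97 to 1.02, -1.64 to -0.71 and -1.58 to -0.95 over the fits without 1 library, and Srxn1 lost it without 4 week replicate 1 as well. Among scavenger and efferocytosis receptors 3 of 19 rose and 1 fell: Stab1 (log2 fold change 1.21, SE 0.26, adjusted p = 0.00564), Axl (0.46) and Cd36 (0.91) against Cd163, none of them called without 4 week replicate 2. Axl also lost its call without any of the 20 week libraries (0.29 to 0.67) and in the offset fit (0.20, adjusted p = 0.32). Mertk (0.098, adjusted p = 0.768) and Mrc1 (-0.088, adjusted p = 0.831) did not pass. With 4 of 19 called beside 16.8% of all genes, the receptor list is not read as having moved.

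The interferon and cell cycle lists held few calls, where 16.8% of all genes were called. In the oxidative phosphorylation list 4 of 23 were called, near that share. Of 20 interferon genes, 1 rose, Ifi44 (log2 fold change 2.08, SE 0.47, adjusted p = 0.00719), which lost its call without 4 week replicate 2 (1.41 to 3.40), and 5 rose without 4 week replicate 1. Irf7 (0.16, adjusted p = 0.738) did not pass. Of 22 cell cycle genes 0 were called by edgeR or DESeq2 and 2 had an unadjusted p under 0.05 by edgeR, with Mki67 at 156 and 100.2 CPM at 4 weeks and 106, 44.01 and 81.1 CPM at 20 weeks (log2 fold change -0.74, SE 0.42, adjusted p = 0.246), Mcm3 at a log2 fold change of 0.29 (adjusted p = 0.475), and 1 rise without 20 week replicate 2 and 1 in the offset fit. Of 23 genes of oxidative phosphorylation (18 with under 5% shared words, of which 1 rose and 1 fell), Sdha rose (0.46) and Ndufa4 (-1.20), Uqcrb (-2.75) and Cox6c (-1.31) fell. Sdha lost its call without 20 week replicate 2 or either 4 week library (0.34 to 0.54), and Cox6c without 20 week replicate 1 or 2 or either 4 week library (-1.84 to -0.93). The 3 that fell have transcripts under 1000 bases, and Ndufa4 (-0.41, adjusted p = 0.0955) and Cox6c (-0.35, adjusted p = 0.397) did not pass in the offset fit. In the list of heat shock and unfolded protein genes 6 of 21 fell and 2 rose, but of the 14 members with under 5% shared words 2 fell and 0 rose. In the offset fit 2 of the 21 fell and 2 rose, and 0 were called without 4 week replicate 2. Hsp90b1, an endoplasmic chaperone, was at 822 and 1116 CPM at 4 weeks and 647, 629 and 593 CPM at 20 weeks (log2 fold change -0.64, SE 0.17, adjusted p = 0.0164), and Pdia4, a disulfide isomerase, at 176 and 261 CPM at 4 weeks and 136, 136 and 134 CPM at 20 weeks (log2 fold change -0.69, SE 0.19, adjusted p = 0.022), both with little shared sequence. Both lost their call without 4 week replicate 2 (-0.83 to -0.40 and -0.94 to -0.38), and Pdia4 also without 20 week replicate 1.

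**Figure D4:**
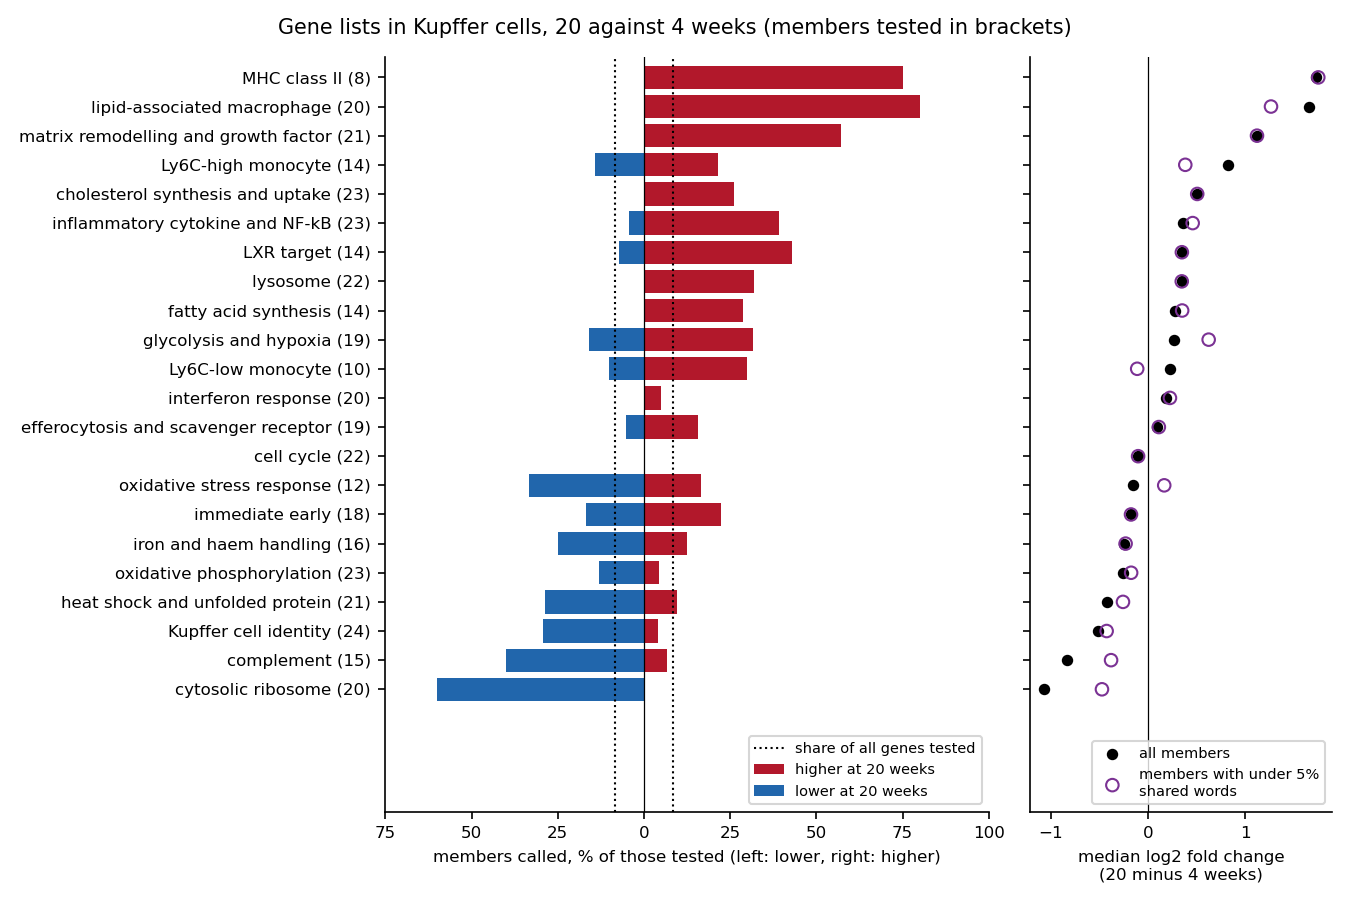
Left, percent of tested members of each of 22 gene lists called higher (red, right) or lower (blue, left) at 20 weeks, with dotted lines at the shares among all genes, 8.35% and 8.4%. Right, median log2 fold change of each list, over all members (filled) and over members with under 5% shared words (open): the lipid-associated macrophage, MHC class II and matrix lists stand highest and the ribosome, complement and Kupffer identity lists lowest.

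The 12 largest falls were of 2 kinds. Plasma proteins made by hepatocytes made up 7 of them. Itih4, an acute phase protein, was at 41.9 and 363 CPM at 4 weeks and 5.40, 15.5 and 3.75 CPM at 20 weeks (log2 fold change -4.59, SE 0.87, adjusted p = 0.00239). Fga and Hp were among the largest falls of genes with under 5% shared words. Fga, the fibrinogen alpha chain, was at 85.5 and 389.5 CPM at 4 weeks and 12.3, 24.2 and 4.60 CPM at 20 weeks (log2 fold change -4.09, SE 0.88, adjusted p = 0.00518). Hp, haptoglobin, was at 75.4 and 425 CPM at 4 weeks and 17.2, 40.8 and 12.8 CPM at 20 weeks (log2 fold change -3.39, SE 0.66, adjusted p = 0.00294). In each of these 4 week replicate 2 was at least 4 times as high as replicate 1, and all 3 lost their call without it (-5.45 to -2.33, -4.80 to -2.62 and -4.15 to -1.66). Saa1 and Saa2, acute phase genes that share sequence with each other, were at 1.39 and 252 CPM and 0.837 and 269 CPM at 4 weeks and at no more than 0.0658 CPM in any 20 week library. Apcs, Orm1, Fgl1 and Serpina1e were also among the 12 largest falls. Of the 7, Saa1 and Orm1 kept their call without 4 week replicate 2. As for every gene of the contrast, library class and week cannot be told apart for Saa1 and Saa2, which also share sequence. Hepatocyte markers as a list fell in 10 of 16 members with 0 rising (median -2.44). Their summed level was 3851 and 5143 CPM at 4 weeks and 1527, 2749 and 1476 CPM at 20 weeks. That sum was 1297 to 2075 CPM at week 0 and 6270 to 8888 CPM at week 1. At week 10 it was 2284 to 4436 CPM and at week 30 it was 1354 to 2321 CPM. The 20 week libraries thus overlapped those before the diet, and library class and week cannot be told apart here either. Of the 13 markers with under 5% shared words 8 fell and 0 rose. Apoa1 was at 127 and 157 CPM at 4 weeks and 15.99, 29.3 and 9.87 CPM at 20 weeks (log2 fold change -2.94, SE 0.57, adjusted p = 0.00283), similar in both 4 week libraries, and Apoa1 and Apoa2 kept their call without any 1 library. Alb, the most abundant product of hepatocytes, was at 1278 and 679 CPM at 4 weeks and 204, 629 and 110.2 CPM at 20 weeks (log2 fold change -1.64, SE 0.76, adjusted p = 0.152). Trf, which Kupffer cells also express, was at 1603 and 2519.8 CPM at 4 weeks and 1193, 1805 and 1302 CPM at 20 weeks (log2 fold change -0.52, SE 0.25, adjusted p = 0.16). Without 4 week replicate 2, 3 of the 16 were called lower, without 20 week replicate 1 it was 6, and without 20 week replicate 2 it was 13.

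The other kind were genes with copies elsewhere in the genome that are not plasma proteins. Rpl35 was at 35.1 and 34.97 CPM at 4 weeks and 0, 0 and 0.0658 CPM at 20 weeks and Rps25 at 53.5 and 66.1 CPM at 4 weeks and 3.24, 1.31 and 2.83 CPM at 20 weeks. Rpl19 and Rps28 were also among this set of 5. Of 20 genes of the cytosolic ribosome 12 fell and 0 rose (median -1.07), yet 18 of the 20 have 5% or more shared words, and the 2 others were not called. Over the 17 libraries these genes followed the library class given above: Rps25 was at 3.70 to 6.97 CPM at week 0, 53.2 to 65.4 CPM at week 10 and 2.91 to 4.23 CPM at week 30. Their calls are uncertain as statements on the diet, since the class and the week cannot be told apart.

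Markers of other cell types are given by list. Of 13 T and NK cell markers, Cd3e, Cd8a and Il7r rose and 0 fell, with a summed level of 55.4 to 81.1 CPM at 4 weeks and 71.2 to 205 CPM at 20 weeks. Cd3e was at 5.21 and 5.02 CPM at 4 weeks and 33.1, 20.2 and 5.59 CPM at 20 weeks (log2 fold change 1.94, SE 0.57, adjusted p = 0.0285), and lost its call without 20 week replicate 1 or either 4 week library (1.34 to 2.38). S100a9 lost its call without either 4 week library (2.70 to 3.52). S100a9 and Mmp8 were the risen markers of 9 for neutrophils, and Ly6g, Mpo and Retnlg had 0 counts in both 4 week libraries. S100a9 was at 0.372 and 0.663 CPM at 4 weeks and 3.62, 5.67 and 3.62 CPM at 20 weeks, and its week 0 level was 10.1 ± 5.995 CPM (SD, n = 3). No marker of B cells (9 tested), sinusoidal endothelium (13) or stellate cells and fibroblasts (12) was called by edgeR. DESeq2 called 0, 1 and 1 of them, edgeR with a replicate block 0, 1 and 3, edgeR without 20 week replicate 2 0, 1 and 1, edgeR without a filter 0, 0 and 1, limma on TPM 0, 1 and 0 and the offset fit 0, 1 and 0, and 0, 2 and 2 had an unadjusted p under 0.05 by edgeR. The defining endothelial genes were present nonetheless: Stab2 was at 641 and 444 CPM at 4 weeks and 630.2, 1062 and 587 CPM at 20 weeks (log2 fold change 0.49, SE 0.26, adjusted p = 0.215), highest in 20 week replicate 2. Bgn and Dcn, matrix genes of stellate cells, were also highest in that library, at 45, 119 and 40.9 CPM and 14.2, 45.7 and 8.81 CPM at 20 weeks. Haemoglobin genes Hbb-bt, Hba-a1 and Hba-a2 fell, each with near-identical copies, and none of the 3 was called in the offset fit. Of 6 bile duct markers Spp1 alone rose and 0 fell (median log2 fold change 1.76). Their summed level was 7.90 to 9.95 CPM at 4 weeks and 64.1 to 114 CPM at 20 weeks, most of it Spp1.

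The other weeks place these values in the time course. Adam8 was at 13.99 ± 9.10 CPM (SD, n = 3) at 10 weeks and at 313 ± 19.4 CPM (SD, n = 4) at 30 weeks, and Gpnmb at 56.4 ± 29.8 CPM at 10 weeks. Trem2 was at 65.2 ± 13.3 CPM at 10 weeks and 568 ± 74.4 CPM at 30 weeks. Fcna, which fell by 20 weeks, was at 1713 ± 125 CPM at 10 weeks and 433 ± 173 CPM at 30 weeks. Apoc1 and C1qa, which also fell by 20 weeks, were at 522 ± 53.96 CPM and 2667 ± 149 CPM at 30 weeks. Week 30 libraries belong to the same library class as those of 20 weeks, and no test between these weeks was made. The step from 1 to 10 weeks, which lies within the other class and uses other libraries, gave 1746 calls (12%), 917 higher (6.3%) and 829 lower (5.7%). Of the 1215 genes that rose by 20 weeks, 155 (12.8%) were also higher at 10 than at 1 week, 16.9% of the 917, and of the 1223 that fell 106 (8.67%) were also lower, 12.8% of the 829. That step has a length profile of the same sign as 20 against 4 weeks: with under 5% shared words its median log2 fold change was -0.29 in genes under 1000 bases and 0.20 in genes of 4000 bases or more, and the part of length in the shared calls was not tested. Cd9 (log2 fold change 1.75, adjusted p = 0.00182) and Mmp14 (1.75, adjusted p = 0.00436) were among the genes already higher in that earlier step.

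Kupffer cells sorted in another set of the study, 2 libraries on control diet and 2 on NASH diet for a time that the labels do not give, share no library with the 4 and 20 week groups. There 2988 of 14407 genes (20.7%) were called, 1611 higher (11.2%) and 1377 lower (9.56%) on the diet. Of the 1214 risen genes tested in both, 512 (42.2%) were higher and 28 (2.31%) lower on the diet in that set, where genes not called here were higher in 8.34% and lower in 9.62%. The 512 make up 32.0% of the 1598 genes higher there and tested in both. Of 1195 fallen genes tested in both, 227 (19.0%) were lower and 116 (9.71%) higher there. Among the 205 of these with 25% or more shared words, 28 were lower and 35 higher. Gpnmb was at 2.93 CPM on control diet and 1209 CPM on NASH diet in that set (log2 fold change 8.68, adjusted p = 2.29e-06) and Cx3cr1 at 5.74 CPM on control diet and 282 CPM on NASH diet (5.63, adjusted p = 1.07e-06). Fcna was lower on the diet (-1.90, adjusted p = 0.00218), and Clec4f (-0.58, adjusted p = 0.11) and C1qa (-0.032, adjusted p = 0.918) did not pass. Itih4 (-0.76, adjusted p = 0.601) and Fga (-1.14, adjusted p = 0.497) did not pass either. C3ar1, risen by 20 weeks, was at 401 CPM on control diet and 490.2 CPM on NASH diet there (0.29, adjusted p = 0.405). That set has its own length profile, with genes under 1000 bases at a median log2 fold change of 0.38, opposite in sign to the one at 20 against 4 weeks.

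**Figure D5:**
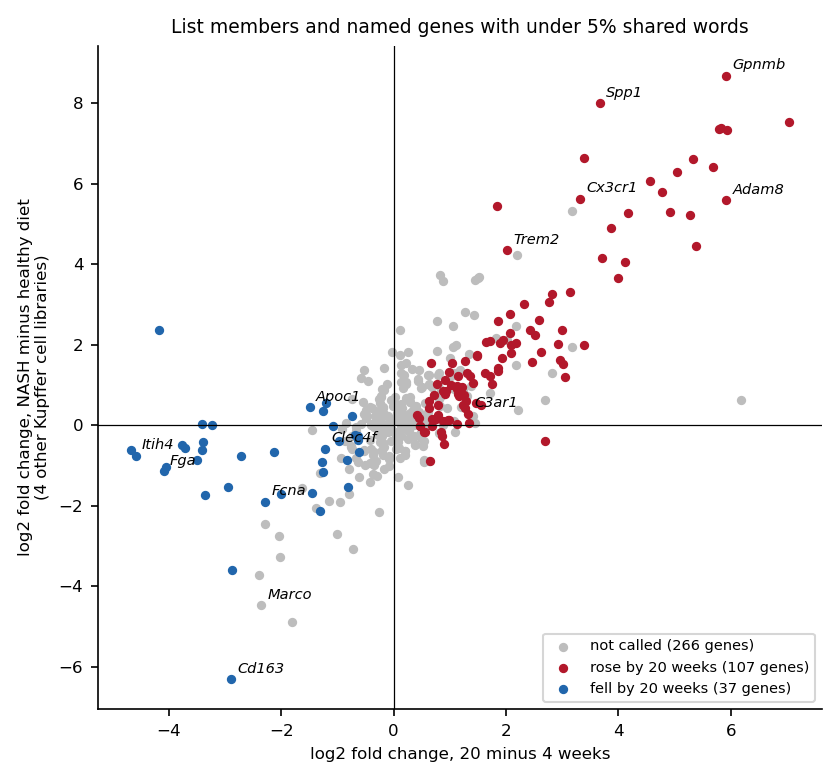
Log2 fold change at 20 minus 4 weeks (x axis) against NASH minus healthy diet in 4 other Kupffer cell libraries (y axis) for 410 list members and named genes with under 5% shared words, 1 point per gene, coloured by call at 20 against 4 weeks. Of the 107 risen genes 97 lie above 0 on the y axis, and of the 37 fallen genes 30 lie below 0. The sides of the 266 uncalled genes drawn were not counted. The genes come from lists chosen with earlier results known and from genes picked by their values. Their counts do not stand for all genes.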

How the data were processed

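Exon reads per RefSeq transcript (mm10) were counted by the authors with HOMER's analyzeRepeats and deposited as raw counts and as TPM, per the file headers. STAR, HOMER and DESeq2 are named in the submitters' processing notes, without versions. The strand option is not given in the sources used here, so overlapping antisense genes cannot be told apart. Samples were grouped by their titles. Of 40458 transcripts, the one with the highest total count was kept per symbol (24941 genes).

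Counts of 17 Kupffer cell libraries were fitted with edgeR 4.0.16 in R 4.3.3 (filterByExpr, TMM factors, quasi-likelihood F test, Benjamini-Hochberg adjustment over 14552 genes). The same fit gave 10 against 1 week, and a separate fit of 12 libraries (6 groups of 2, 6 residual degrees of freedom) gave NASH against control diet in the 4 Kupffer cell libraries of the other set. The edgeR fit was also run on simulated data for 20 against 4 weeks with 14268 genes. There 52% of the 2-fold and 80% of the 4-fold changes were found, and 6 unchanged genes were called. The shares with DESeq2 were 64% and 87%, with 26 unchanged genes called. These values hold for simulated counts alone. They do not give the rate of false calls in the measured libraries, where library class and length moved with the contrast. Alternatives were DESeq2 1.42.0, limma 3.58.1 on log2 of the authors' deposited TPM plus 1, RLE factors, no filter, the 5 libraries alone, a replicate block, transcripts chosen by TPM, and each library left out. The last alternatives were added after seeing the data: genes with under 5% of 50-base words in another locus (GENCODE M21 transcripts), and an offset for length, GC and shared words (mgcv 1.9.3). Tables were joined with pandas 2.3.3 in Python 3.11.15.

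Named genes were the 12 largest rises and falls among called genes of at least 10 CPM in the higher group without overlap, up to 4 called members per pathway list (the 2 most abundant where none was called), Timd4, Adgre1, Clec4f and the 2 most abundant markers of each other cell type. Genes outside the rule were chosen after their values were seen, and some members counted in the lists are not reported here by name. The comparison and the 31 gene lists were chosen with earlier results of these data known. Total counts were 10.5 to 27.0 M per library, and the number of libraries, 3 and 2, limits precision.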

Additional observations from a re-analysis of the deposited data

Results flagged for a closer look

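In the 30 week group, the one Kupffer cell group with 4 libraries, 10 of 129 named genes had a library set apart from the other 3. Chance sets apart about 1 gene in 20, and genes of 1 library are not independent. In 7 genes it was replicate 2 and its value was high: Alb was at 628.2 CPM (others 159.6 to 209.0), Fgb at 41.49 (10.28 to 12.45), Fgg at 19.98 (5.526 to 7.689), Serpina3m at 3.007 (0.4332 to 0.5902), Fgl1 at 2.243 (0.4829 to 0.7581), Hbb-bs at 2.702 (0.3881 to 0.4829) and Cox6c at 23.45 (21.01 to 21.41). Of these, 5 encode plasma proteins of the liver. Xylt1 was low in replicate 2, at 12.59 CPM (14.31 to 14.62). H2-M2 was high in replicate 1, at 139.0 CPM (89.4 to 94.75), and Sox9, a bile duct marker, in replicate 4, at 2.491 CPM (1.116 to 1.288). No 30 week library entered the contrast between 20 and 4 weeks itself, but all 4 shared the estimate of spread.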

How the results depend on the processing

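Called genes, 2438 in all, were 958 (561 higher, 397 lower) with the 5 libraries alone, 2161 with a replicate block, 2447 with RLE factors, 2307 without a filter, 2444 with transcripts chosen by TPM, 2984 with DESeq2 and 2713 with limma on TPM, where 34.8% were higher against 49.8% in the edgeR fit. Without 1 library they were 700 to 2427 (402 to 1206 higher, 298 to 1221 lower). Replicate numbers did not pair the libraries (correlation of deviations -0.04 for number 1). Of the 2438 calls, 3 reversed without 4 week replicate 2 and 13 in the offset fit. Of 110 called named genes, 55 lost the call without 4 week replicate 2, 25 with the 5 libraries alone and 13 in the offset fit.

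Among named genes that were not called, Bgn turned to -0.050 without 20 week replicate 2. Dcn was between -1.19 and 0.19 without 1 library (0.058, 0.19 and 0.074 where it reversed) and 0.068 in the offset fit. Cd4 was between -0.47 and 0.18 (0.18 and 0.092 where it reversed), and Csf3r turned to 0.11 and 0.093 without 1 library and to 0.043 in the offset fit.

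List medians (log2) moved by more than their spread as follows. With limma on TPM they were 0.25 for LXR targets, 0.24 for Ly6C-high monocytes, 0.13 for glycolysis, 0.41 for B cells, 0.65 for neutrophils, 0.53 for dendritic cells, -1.05 for erythroid and 0.36 for cholangiocyte markers. With the 5 libraries alone they were -0.43 for oxidative stress, 2.30 for neutrophils and 1.71 for dendritic cells. Over genes with under 5% shared words they were 0.36 for Ly6C-high and -0.13 for Ly6C-low monocytes, 0.61 for glycolysis, 0.15 for oxidative stress, -0.49 for the ribosome, 1.75 for dendritic cells and -0.12 for erythroid markers. With the offset they were -0.23 for heat shock, 0.11 for oxidative phosphorylation, 0.51 for glycolysis, -0.52 for the ribosome and -0.71 for erythroid markers.

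Without 1 library, medians ranged from 0.31 to 0.45 for LXR target, 0.22 to 0.92 for cholesterol synthesis and uptake, 0.20 to 0.57 for fatty acid synthesis, 0.64 to 1.21 for Ly6C-high monocyte, -0.36 to 1.19 for interferon response, 1.24 to 2.38 for MHC class II, 0.96 to 1.32 for matrix remodelling and growth factor, -0.38 to -0.094 for oxidative stress response, -1.28 to -0.85 for cytosolic ribosome, -3.48 to -2.02 for hepatocyte, 0.50 to 1.70 for B cell and 2.44 to 3.22 for neutrophil. The cause of these shifts was not tested. Of the 5 fits without 1 library, the 2 without a 4 week library gave the fewest calls.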

Other observations

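The genes of this paragraph are outside the rule for named genes and were chosen after their values were seen. Ltbp3, which holds latent TGF-beta in the matrix, was at 8.55 and 3.13 CPM at 4 weeks and 94.1, 84.9 and 99.2 CPM at 20 weeks (log2 fold change 3.98, SE 0.35, adjusted p = 6.65e-06). Tgfbr1, a receptor chain for that ligand, was at 202 and 189 CPM at 4 weeks and 593, 589 and 619.7 CPM at 20 weeks (log2 fold change 1.62, SE 0.15, adjusted p = 1.09e-05). Tcirg1, a further subunit of the lysosomal proton pump, was at 760.0 and 555 CPM at 4 weeks and 1565, 1682 and 1503 CPM at 20 weeks (log2 fold change 1.27, SE 0.15, adjusted p = 6.32e-05). All 3 were higher in every 20 week library than in both 4 week libraries and kept their call without any 1 library. Anpep, a surface aminopeptidase, was at 27.5 and 18.9 CPM at 4 weeks and 439, 212 and 359 CPM at 20 weeks (log2 fold change 3.86, SE 0.49, adjusted p = 9.19e-05). Fam20c, a kinase of secreted proteins, was at 25.2 and 18.8 CPM at 4 weeks and 206, 146 and 233 CPM at 20 weeks (log2 fold change 3.15, SE 0.33, adjusted p = 2.07e-05). These 2 were likewise without overlap. Slc12a4, a potassium-chloride cotransporter, had a log2 fold change of 1.29 (SE 0.12, adjusted p = 1.09e-05), and Ptpn7, a phosphatase of blood cells, one of 3.71 (SE 0.36, adjusted p = 1.27e-05).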
